A study of Mus musculus with 16 samples.

Results

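The glutathione transferases and the UDP-glucuronosyltransferases, the main conjugating enzymes of the liver, were measured in mice lacking Arglu1 in hepatocytes. Members were chosen by symbol, taking every gene of the deposited counts table that matched. Glutathione transferases were those named Gsta, Gstk, Gstm, Gsto, Gstp, Gstt or Gstz, and the microsomal ones (Mgst). Glucuronosyltransferases, so called here by symbol alone, were those of family Ugt1a, Ugt2a, Ugt2b or Ugt3a. This gave 43 of 15119 genes, of which 24 are glutathione transferases and 19 are glucuronosyltransferases. After the filter on low counts 42 of the 43 were tested, among 14434 genes tested in all. The remaining member, Ugt2a1, had an estimated count of effectively 0 in every library.

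Poly(A) RNA from livers of female mice was sequenced in 16 libraries. Wild type mice (WT) and mice with a hepatocyte knockout of Arglu1 (LKO) were aged to 9 months on chow and then either stayed on chow or ate a high-fat diet (TD. 88137, here HFD) during 12 weeks, with 4 libraries in each of the 4 groups. Arglu1 encodes an arginine- and glutamate-rich coregulator of transcription and splicing. Strain, Cre driver and deleted exons are not given in the sources used here. Whether the libraries of a group come from different animals is not stated in the labels, so p-values measure the spread among libraries, which may be partly technical.

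Glutathione transferases join glutathione to reactive electrophiles, among them drug epoxides and lipid peroxidation products. The products are then cut down and acetylated to mercapturic acids or pumped out of the cell. Glucuronosyltransferases in the endoplasmic reticulum transfer glucuronic acid from UDP-glucuronate to bilirubin, steroids, bile acids, phenols and drugs, which makes them soluble enough for bile or urine. Both families are known targets of xenobiotic-sensing transcription factors, including the receptors PXR, CAR and AhR and the antioxidant factor NRF2.

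Total estimated counts ran from 19142612 to 25120565 per library. Arglu1 stood between 39.5 and 45.1 CPM (counts scaled to library size) in the 8 WT libraries and between 12.8 and 16.7 CPM in the 8 LKO libraries. On the second principal component of all genes, with 13.8% of the variance, LKO chow libraries 3 and 4 (38.1 and 34.7) stood apart from LKO chow libraries 1 and 2 (-10.7 and -11.1). Hepatocyte markers were high throughout, with a summed level of 66839 to 126965 CPM for the 7 of 8 in the table, most of it Alb. Between genotypes on chow, edgeR called 0 of these 7 higher in LKO and 3 lower. They were Cps1 (log2 fold change -0.84), Serpina1c (-0.57) and Hnf4a (-0.26). Of 34 tested markers of bile duct, macrophage, endothelial, stellate, T and neutrophil cells, 0 were called between genotypes on either diet by edgeR. Of them, 4 on chow and 3 on HFD had an unadjusted p below 0.05, and DESeq2 called 1 (Spp1) on chow and 2 (Epcam and Spp1) on HFD. In whole liver, fewer cells of a type and less RNA per cell cannot be told apart.

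The Ugt1a members need their structure first, because it sets what the counts can resolve. They lie in 1 cluster on chromosome 1 (88055388 to 88220002, plus strand, GRCm38, GENCODE M21), where each gene has its own first part of 879 to 986 bases and then joins the same downstream exons, which begin at 88215044. The sequences below are the joins of 6 members (GENCODE M21 transcripts), shown because these 6 differ on the lower-case side and not on the capital side. Lower case marks the last 40 bases of the member's own part, and capitals mark the first 25 shared bases.
Ugt1a9: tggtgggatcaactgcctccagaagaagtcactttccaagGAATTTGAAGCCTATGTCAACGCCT
Ugt1a10: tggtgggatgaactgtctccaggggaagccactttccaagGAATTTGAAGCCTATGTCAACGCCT
Ugt1a6a: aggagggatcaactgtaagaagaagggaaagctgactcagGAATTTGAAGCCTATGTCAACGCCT
Ugt1a6b: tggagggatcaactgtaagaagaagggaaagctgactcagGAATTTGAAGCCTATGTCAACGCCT
Ugt1a1: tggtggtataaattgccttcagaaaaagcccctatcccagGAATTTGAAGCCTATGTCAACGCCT
Ugt1a5: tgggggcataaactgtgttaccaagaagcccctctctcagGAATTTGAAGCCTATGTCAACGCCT

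All 6 carry the same capitals. Ugt1a2, which is not shown, has the same last 40 bases of its own part as Ugt1a5. In Ugt1a9 the shared exons made up 59.9% of the transcript, and in Ugt1a6b 57.2%. Between the own parts, identity was 97.4% for Ugt1a6a and Ugt1a6b, 86.9% for Ugt1a9 and Ugt1a10 and 80.6% for Ugt1a2 and Ugt1a5. The own parts of Ugt1a9 and Ugt1a6b were 58.0% identical. All 150-base windows of Ugt1a6a occur in transcripts of other genes, its own part included, as do 66.2% of those of Ugt1a6b and 57.5% of those of Ugt1a9. How the authors' counting divided reads of the shared exons is not given in the sources used here, so the level of a single Ugt1a gene is uncertain where its neighbours change. The same holds between Gstp1 and Gstp2, where 41.8% of the 150-base windows of the Gstp1 transcript also occur in Gstp2 or a pseudogene, and between Gsta1 and Gsta2, where 73.7% of the Gsta1 windows occur in Gsta2 or in 2 predicted genes.

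Levels between genes were compared as CPM per kilobase of transcript. In WT liver on chow the most abundant members were Gstm1, a mu-class transferase, at 1398 CPM per kilobase and the membrane-bound Mgst1 at 1288. Gsta3, an alpha-class enzyme, stood at 876 and Gstz1, the maleylacetoacetate isomerase of tyrosine breakdown, at 405. The highest glucuronosyltransferases were Ugt1a1, the bilirubin-conjugating enzyme, at 353 CPM per kilobase, Ugt2b5 at 327 and Ugt2b36 at 257. The theta-class Gstt1 stood at 259.9. Ugt1a9, at 56.8 in WT on chow, reached 218 in LKO on chow and 217 in LKO on HFD. At the low end, Gsto2 and Ugt2a2 were at 0.265 and 0.172 CPM per kilobase in WT on chow.

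**Figure D1:**
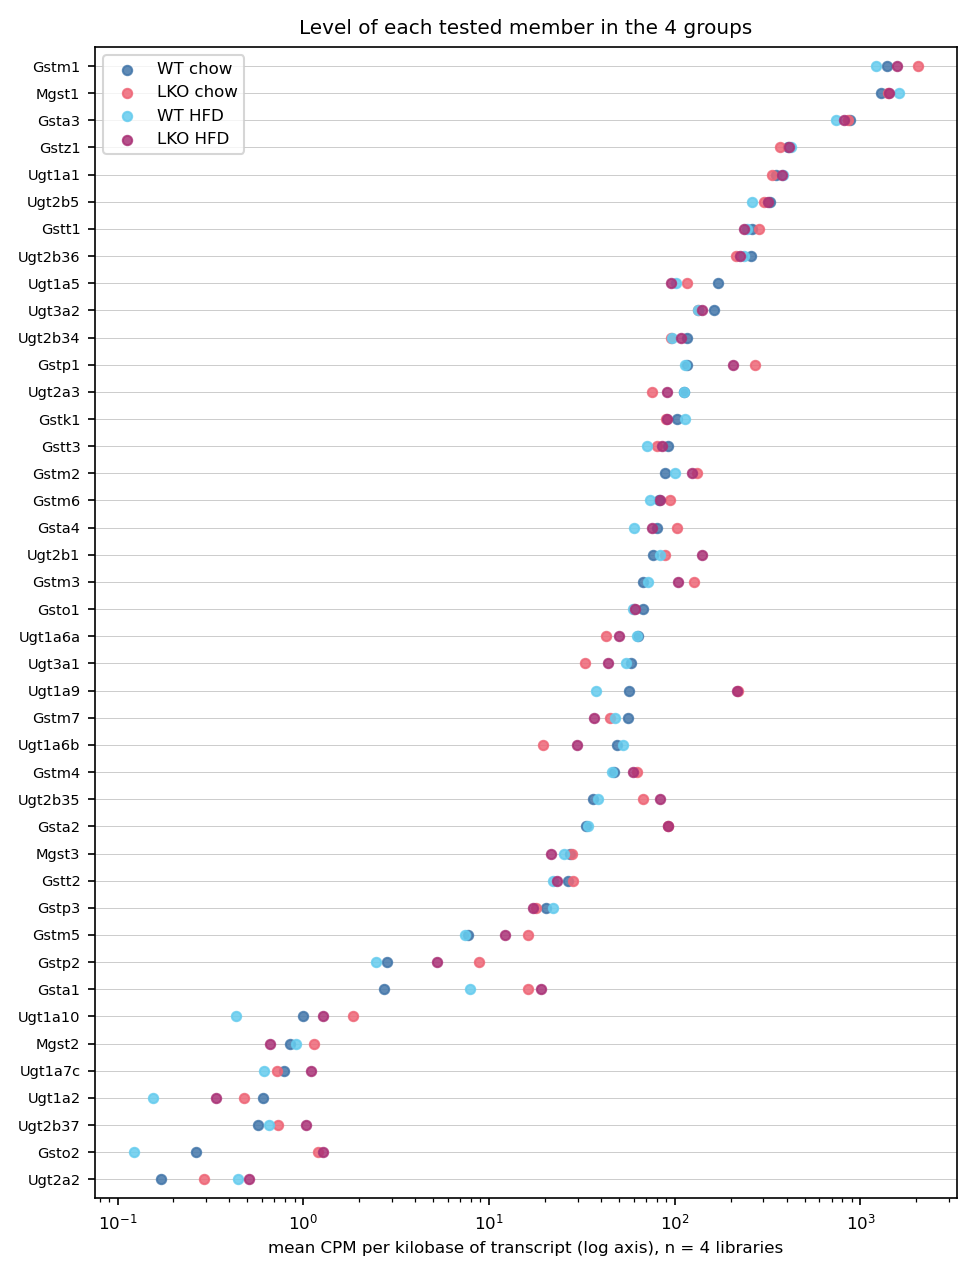
Mean level of the 42 tested members in each group, as CPM per kilobase of transcript on a log axis, ordered by the level in WT on chow, with points for the group means of 4 libraries. The axis is logarithmic over the whole range, from Ugt2a2 at 0.172 to Gstm1 at 1398 CPM per kilobase in WT on chow, and Ugt1a9 moves from 56.8 in WT to 218 in LKO on chow.

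Gstm1, Mgst1, Gsta3, Gstz1, Ugt1a1, Ugt2b5, Ugt2b36 and Gstt1 were not called between genotypes by the main edgeR fit on either diet. Other fits called some of them. Ugt2b5 was higher in LKO on HFD with DESeq2 (0.28, adjusted p = 0.0456) and in the edgeR fit of only the groups compared (0.0267), among others. Ugt2b36 was lower on chow with DESeq2 (-0.27, 0.0246) and with edgeR without LKO chow library 4 (0.0392), among others. Without LKO chow libraries 1 and 2, edgeR called Mgst1 (0.36, 0.0161) and Gstt1 (0.39, 0.0163) higher on chow. Gstm1 averaged 1802 ± 533 CPM in WT against 2624 ± 612 CPM in LKO on chow (SD, n = 4 each; log2 fold change 0.54, SE 0.221, edgeR adjusted p = 0.0855). It was called without WT chow library 4 (0.74, adjusted p = 0.0229), without LKO chow library 2 (0.69, 0.0243) and without LKO chow libraries 1 and 2 (0.76, 0.0259). Mgst1 ranged over 1323 to 1674 CPM in WT chow libraries, against 1324 to 2056 CPM in LKO chow libraries. On chow the means were 1276 ± 161 and 1254 ± 75.8 CPM for Gsta3, and 784 ± 136 and 739.5 ± 60.3 CPM for Ugt1a1. Summed over all glutathione transferases, the level was 6571 ± 961 CPM in WT against 7805 ± 1329 CPM in LKO on chow, and 6455 ± 821 and 7019 ± 316 CPM on HFD. Summed glucuronosyltransferases stood at 4205 ± 282 and 4004 ± 231 CPM on chow and at 3794 ± 184 and 4458 ± 315 CPM on HFD. These sums were not tested.

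The first comparison asked how the loss of Arglu1 in hepatocytes changed the members on chow. Of the glutathione transferases, 2 of 4 alpha-class, 2 of 7 mu-class and 2 of 3 pi-class genes rose, as did the omega-class Gsto2, and the mu-class Gstm7 fell. The largest rises were those of Gsta1, Gsto2, Ugt1a9 and Gstp2. Within the Ugt1a cluster Ugt1a9 rose and Ugt1a6b and Ugt1a6a fell. Of 42 members, 14 (33.3%) were called at an adjusted p below 0.05 (edgeR), where 24.7% of all tested genes were. Of these, 9 rose and 5 fell, which is 21.4% and 11.9% of members against 12.9% and 11.8% of all genes. A rise of at least 2-fold was found in 7 members (16.7%, against 5.15% of all genes) and a fall of that size in 1 (2.38%, against 1.12%). The 2 groups did not overlap for 13 members (31.0%, against 21.4% of all genes). The median log2 fold change was 0.11 over members and 0.02 over all genes. Glutathione transferases accounted for 7 rises and 1 fall of 24, and glucuronosyltransferases for 2 rises and 4 falls of 18. DESeq2 called 17 members, 9 higher and 8 lower (27.5% of all genes were called), adding Ugt2b34, Ugt2b36 and Ugt3a2 as falls. With edgeR without LKO chow libraries 3 and 4 the split was 6 higher and 9 lower (16.4% of all genes were called). Without LKO chow libraries 1 and 2 it was 15 higher and 6 lower (34.9% of all genes).

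On HFD the same question gave 11 called members (26.2%, against 17.9% of all genes), of which 9 rose (21.4%, against 10.3%) and 2 fell (4.76%, against 7.57%). A rise of at least 2-fold was found in 6 members (14.3%, against 3.97% of all genes). The groups did not overlap for 17 members (40.5%, against 27.7%). The median log2 fold change was 0.18 over members and -0.01 over all genes. Among hepatocyte markers on HFD, Alb was at 46314 to 51380 CPM in WT libraries and 67145 to 81577 CPM in LKO libraries, while the other 6 summed to 18432 to 21669 and 17577 to 20411 CPM. Alb was called higher (0.58) and Ttr (-0.42) and Serpina1c (-0.36) lower, and their part in the member calls was not tested. Under upper-quartile scaling of the libraries the split was 9 higher and 5 lower (18.4% of all genes were called). DESeq2 called 16 members, 11 higher and 5 lower (20.8% of all genes). Between the diets, 7 members rose on both (16.7%, against 7.34% of all genes), namely Gsta2, Gstm5, Gsto2, Gstp1, Gstp2, Ugt1a9 and Ugt2b35. The members that fell on both were 2 (4.76%, against 4.91%), Gstm7 and Ugt1a6b.

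**Figure D2:**
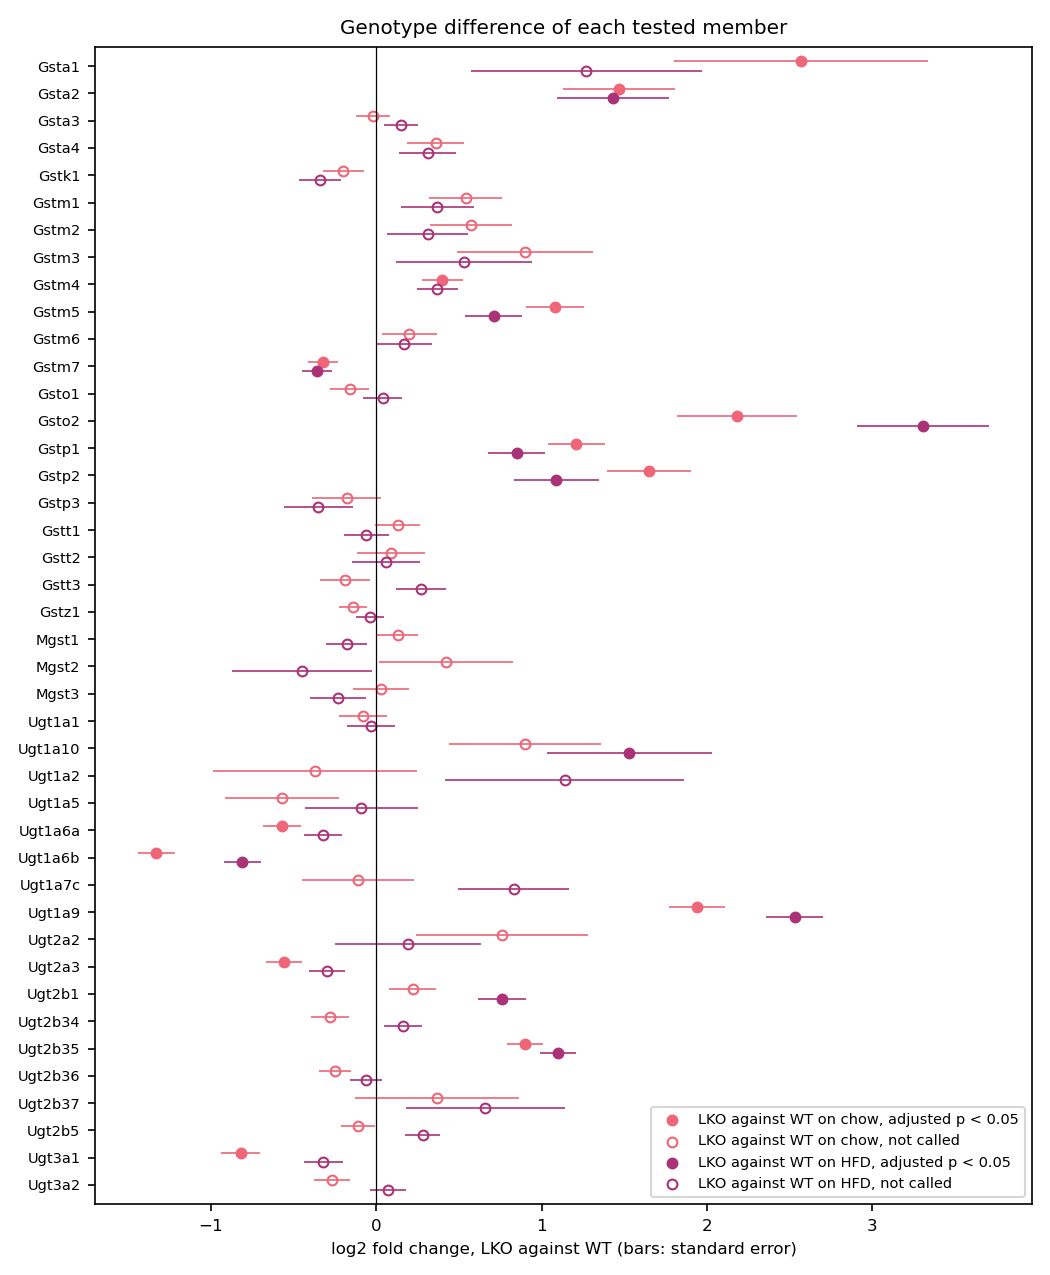
Genotype difference of each tested member as the fitted log2 fold change (LKO over WT) for chow and for HFD, with bars for the standard error and filled points for an adjusted p below 0.05. Ugt1a9 lies at 1.94 on chow and 2.53 on HFD, and Ugt1a6b lies at -1.33 and -0.81.

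Ugt1a9, which conjugates a broad range of phenols, was the glucuronosyltransferase with the largest rise. On chow it stood at 138, 124, 107 and 128 CPM in WT libraries 1 to 4 and at 536, 450.2, 469 and 454 CPM in LKO libraries 1 to 4. On HFD the values were 49.4, 108, 81.9 and 91.3 CPM in WT and 505, 490.4, 458 and 448 CPM in LKO. The genotypes did not overlap on either diet, and the lowest LKO value, 448 CPM, lay above the highest WT value, 138 CPM. The log2 fold change was 1.94 (SE 0.167) on chow, with an edgeR adjusted p of 2.66e-07, and 2.53 (SE 0.171) on HFD, with an adjusted p of 2.04e-08. Its share of the summed Ugt1a count was 8.06% ± 1.14 in WT and 29.5% ± 1.05 in LKO on chow, and 5.76% ± 1.64 and 27.8% ± 1.75 on HFD (SD, n = 4 each).

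Ugt1a6b, one of a near-identical pair that conjugates planar phenols, moved in the opposite direction. On chow it was at 107, 96.9, 127 and 122 CPM in WT against 49.9, 47.7, 36.7 and 45.4 CPM in LKO. On HFD it was at 119.6, 121, 120.1 and 123 CPM in WT against 64.9, 76.7, 58.4 and 75.7 CPM in LKO. All LKO libraries lay below all WT libraries on both diets, with log2 fold changes of -1.33 on chow (SE 0.114) and -0.81 on HFD (SE 0.112), with adjusted p of 2.46e-07 and 6.37e-05. The partner Ugt1a6a fell on chow from 145 ± 22.2 to 97.8 ± 9.27 CPM (log2 fold change -0.57, SE 0.116, adjusted p = 0.00161). On HFD Ugt1a6a stood at 144 ± 6.93 CPM in WT against 115 ± 15.4 CPM in LKO (adjusted p = 0.0622), and DESeq2 (0.0395), upper-quartile scaling (0.0485), the fit of only the groups compared (0.0281) and fits without WT chow library 1 (0.0493) or 4 (0.0499) called it. Since reads of the pair may be exchanged, their sum was taken: it was 258 ± 34.2 CPM in WT against 143 ± 7.54 CPM in LKO on chow, and 265 ± 7.78 and 184 ± 23.7 CPM on HFD.

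Ugt1a10, whose own part resembles that of Ugt1a9, was low. It stood at 1.55, 1.76, 2.79 and 2.82 CPM in WT and 3.5, 3.07, 4.86 and 5.14 CPM in LKO on chow, and was not called there. On HFD it was at 1, 1.17e-05, 1.04 and 1.85 CPM in WT against 3.53, 2.23, 3.34 and 2.36 CPM in LKO, and was called (log2 fold change 1.53, SE 0.498, adjusted p = 0.0432). WT HFD library 2 was thus listed at effectively 0, and this call was lost in 13 of 25 alternative fits. Ugt1a5 ranged from 166 to 471 CPM among WT chow libraries alone, which is a wider span than any difference between its group means.

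Summed over the 8 copies, the Ugt1a cluster was not called. Its level was 1552 ± 121 CPM in WT against 1623 ± 167 CPM in LKO on chow (log2 fold change 0.06, SE 0.095, adjusted p = 0.68), and 1429 ± 76.1 and 1711 ± 107 CPM on HFD (0.26, SE 0.0951, adjusted p = 0.067). Without Ugt1a9 the summed level was 1428 ± 125 CPM in WT against 1145 ± 129.6 CPM in LKO on chow, and 1346 ± 67.0 and 1236 ± 97.9 CPM on HFD. Within a total that was not called, Ugt1a9 was thus higher and Ugt1a6b lower.

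**Figure D3:**
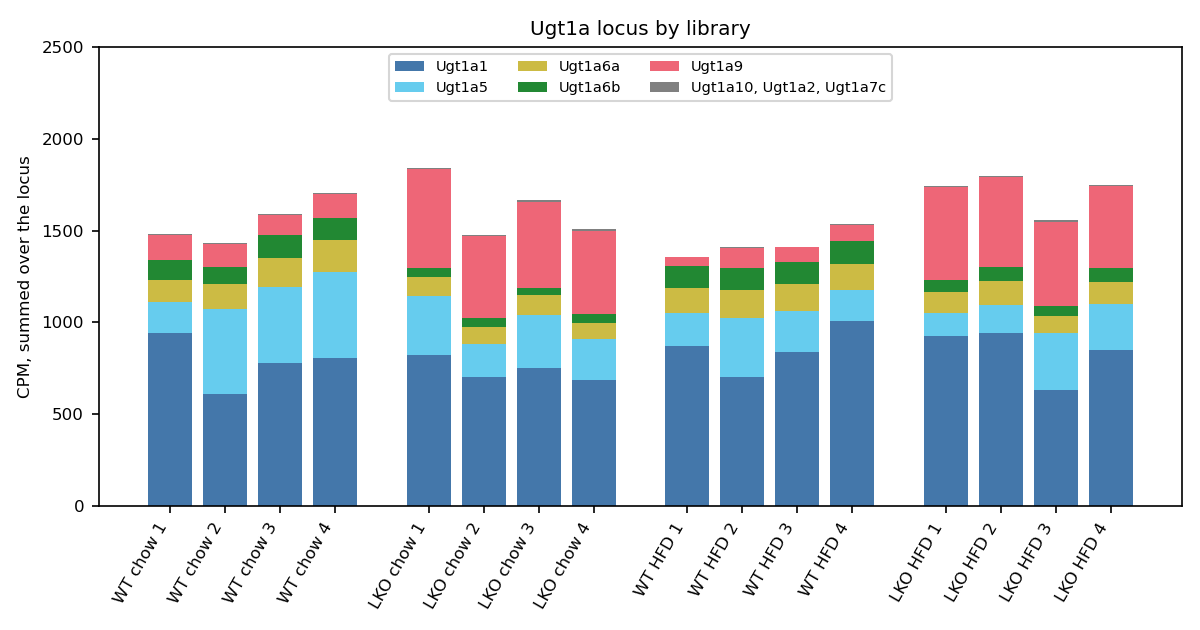
Stacked CPM of the 8 Ugt1a members in each of the 16 libraries, with 1 bar per library and the least abundant 3 members drawn together. The Ugt1a9 part is wide in all 8 LKO bars (448 to 536 CPM) and narrow in all 8 WT bars (49.4 to 138 CPM), while the height of the bars overlaps between genotypes on chow and on HFD runs from 1356 to 1536 CPM in WT and from 1555 to 1797 CPM in LKO.

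Among the Ugt2b genes, which conjugate steroids and bile acids, Ugt2b35 (chromosome 5, 87000860 to 87013275, plus strand) rose on both diets. It was at 127, 110.4, 123 and 124 CPM in WT and 231, 259, 201 and 212 CPM in LKO on chow, and at 123, 122, 133 and 140.1 CPM in WT and 295, 286, 221 and 311 CPM in LKO on HFD. There was no overlap, with log2 fold changes of 0.90 on chow and 1.10 on HFD (SE 0.108 for both), with adjusted p of 1.16e-05 and 1.73e-06. None of the 150-base windows of the Ugt2b35 transcript occurred in another gene. Ugt2b1 rose on HFD, from 215 ± 21.7 to 363 ± 64.2 CPM (log2 fold change 0.76, SE 0.143, adjusted p = 0.00107). On chow Ugt2b1 stood at 196 ± 23.8 and 229 ± 40.8 CPM and was not called. Summed over the 6 Ugt2b copies, which lie on chromosome 5, expression was higher in LKO on HFD (log2 fold change 0.33, SE 0.096, adjusted p = 0.0229). On chow that sum was not called (-0.06, adjusted p = 0.722).

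The other glucuronosyltransferases called were lower in LKO, and on chow. Ugt3a1 is counted among them by its symbol, though it uses N-acetylglucosamine as its sugar in place of glucuronic acid. Ugt3a1 fell from 129.8 ± 17.7 to 73.4 ± 8.69 CPM (log2 fold change -0.82, SE 0.118, edgeR adjusted p = 7.48e-05). Ugt2a3 fell from 237 ± 24.8 to 161 ± 15.2 CPM (-0.56, SE 0.11, adjusted p = 0.00124). On HFD the differences were -0.32 for Ugt3a1 (adjusted p = 0.0672) and -0.30 for Ugt2a3 (adjusted p = 0.0662). DESeq2 called both there (adjusted p = 0.045 for Ugt3a1 and 0.0377 for Ugt2a3), as did upper-quartile scaling (0.0411 and 0.0394) and the fit of only the groups compared (0.0331 and 0.0467). Leaving out WT HFD library 2 gave a call for Ugt3a1 (0.0259), and leaving out WT chow library 2 gave one for Ugt2a3 (0.0486). Both were also called without LKO chow libraries 1 and 2, and Ugt3a1 without LKO chow libraries 3 and 4. Summed over Ugt3a1 and Ugt3a2, both on chromosome 15, expression was lower in LKO on chow (log2 fold change -0.4, SE 0.108, adjusted p = 0.0122). On HFD that sum was not called (-0.03, adjusted p = 0.896).

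Of the glutathione transferases, Gstp1 had the lowest adjusted p on chow. This pi-class enzyme (chromosome 19, 4035407 to 4037985, minus strand) is known to be higher in male than in female mouse liver. It stood at 74.1, 86.3, 94.9 and 127 CPM in WT against 196, 197, 241 and 254 CPM in LKO on chow. On HFD it stood at 74.0, 125, 100.3 and 72.9 CPM in WT against 173, 167, 168 and 166 CPM in LKO. All LKO libraries were above all WT libraries, with log2 fold changes of 1.21 (SE 0.173) on chow, with an adjusted p of 7.7e-05, and 0.85 (SE 0.172) on HFD, with an adjusted p of 0.00203.

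Its neighbour Gstp2 was at 1.86, 1.43, 1.03 and 1.41 CPM in WT and 4.48, 3.39, 4.23 and 5.84 CPM in LKO on chow. On HFD it was at 0.777, 1.81, 1.43 and 1.01 CPM in WT and 2.36, 3.12, 2.33 and 2.86 CPM in LKO. The genotypes again did not overlap (log2 fold changes 1.65 and 1.09, SE 0.255 and 0.259, adjusted p = 0.000147 and 0.00683). Gstp2 made up 1.36% of the pi-class count in WT on chow, and its reads cannot be told apart with certainty from those of Gstp1. The sum over the pi class does not depend on that division. The sum was called on both diets (log2 fold changes 1.1 and 0.73, SE 0.173 and 0.172, adjusted p = 0.000194 and 0.00622). The third copy, Gstp3, had no shared window and was not called, at 14.4 ± 2.65 CPM in WT against 12.7 ± 2.38 CPM in LKO on chow.

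Promoter windows (RefSeq, GRCm38.p6) were found for 39 of 43 members, and not for Gsta4, Gstt2, Ugt1a6b and Ugt3a2. Those of Gstp1 and Gstp2, which rose together, were 82.8% identical over the 250 bases before the start. The parts outside annotated exons are shown here 5′ to 3′, at chr19:4037986-4038162 for Gstp1 and chr19:4042264-4042471 for Gstp2, both on the minus strand, with the window of Ugt1a9 at chr1:88070529-88070778 on the plus strand for contrast. Capitals would mark either motif searched. None fell in these stretches, and a GCGTG of the Gstp1 window, 13 bases before its start, lies in the annotated exon that is not shown.
Gstp1: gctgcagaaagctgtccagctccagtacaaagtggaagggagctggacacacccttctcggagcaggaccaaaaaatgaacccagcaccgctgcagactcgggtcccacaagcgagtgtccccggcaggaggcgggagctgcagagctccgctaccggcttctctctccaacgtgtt
Gstp2: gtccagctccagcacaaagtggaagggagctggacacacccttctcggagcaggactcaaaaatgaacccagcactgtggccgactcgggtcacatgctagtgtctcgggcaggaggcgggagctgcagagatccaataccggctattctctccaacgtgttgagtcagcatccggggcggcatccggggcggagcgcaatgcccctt
Ugt1a9: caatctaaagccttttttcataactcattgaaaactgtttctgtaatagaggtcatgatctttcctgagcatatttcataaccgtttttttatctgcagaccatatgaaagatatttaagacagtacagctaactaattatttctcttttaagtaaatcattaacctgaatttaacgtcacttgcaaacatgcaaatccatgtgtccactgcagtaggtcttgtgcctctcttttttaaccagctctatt

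The motifs were TGACNNNGC, the core of the antioxidant response element bound by NRF2, and GCGTG, the core of the xenobiotic response element bound by AhR. Both strands of 300-base windows were searched, which are longer than the 250 bases described above. The GCGTG of Gsta1, counted here, lies outside the 250 bases before its start. TGACNNNGC occurred in 4 of the 39 members (10.3%), Gsta3, Gstm5, Gstm7 and Mgst1, and in 14% of all 27025 genes with a window. GCGTG occurred in 8 of 39 (20.5%), Gsta1, Gsta2, Gstm1, Gstm5, Gstp1, Gstp3, Mgst3 and Ugt1a5, against 35.2% of all genes. Both motifs were found in the window of Gstm5, which rose, and neither in that of Ugt1a9, which also rose. Of the other members with TGACNNNGC, Gstm7 fell, and Gsta3 and Mgst1 were not called between genotypes by the main fit. Of the other members with GCGTG, Gsta1, Gsta2 and Gstp1 rose on chow. Gstm1, Gstp3, Mgst3 and Ugt1a5 were not called between genotypes by the main fit. Whether a motif goes with a rise was not tested. All 250 bases before the start of Gstm5 lie in annotated exons. Only exact matches were counted. The windows of Gstp1 and Gstp2 hold tgagtcagc, which differs from TGACNNNGC at a single letter and was not counted. A match is a string of letters and was not tested as a site.

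The alpha-class Gsta2 (chromosome 9, 78331018 to 78355788, minus strand), whose enzyme conjugates electrophiles and reduces lipid peroxides, was at 19.9, 30.6, 18.6 and 38.5 CPM in WT and 85.3, 36.2, 102 and 74.3 CPM in LKO on chow. LKO chow library 2, at 36.2 CPM, fell inside the WT range. On HFD it was at 13.5, 38.9, 26.1 and 32.4 CPM in WT and 81.7, 79.1, 64.1 and 74.3 CPM in LKO, with no overlap. The log2 fold changes were 1.47 on chow (SE 0.339) and 1.43 on HFD (SE 0.338), with adjusted p of 0.00583 and 0.00851. The chow call was lost without LKO chow libraries 3 and 4 (adjusted p = 0.0767).

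Gsta1, in part counted with Gsta2, varied widely. It stood at 0.246, 3.08, 1.9 and 4.24 CPM in WT against 18.1, 5.19, 21.6 and 11.9 CPM in LKO on chow, and at 0.712, 15, 8.7 and 3.29 CPM in WT and 12.6, 12.5, 23.1 and 18.7 CPM in LKO on HFD. The groups did not overlap on chow and did overlap on HFD. It was called on chow (log2 fold change 2.57, SE 0.769, adjusted p = 0.0262) and not on HFD (1.27, SE 0.699, adjusted p = 0.244). The chow call was lost when WT chow library 1 (adjusted p = 0.0548) or 3 (0.0677), LKO chow library 1 (0.0511) or 3 (0.0746), or LKO chow libraries 3 and 4 together (0.135) were left out. The sum of Gsta1 and Gsta2 was called on both diets (log2 fold changes 1.6 and 1.4, SE 0.379 and 0.376, adjusted p = 0.00698 and 0.018).

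In the mu class, on chromosome 3, Gstm5 rose and Gstm7 fell. Gstm5 (107895821 to 107898686, plus strand) was at 6.34, 6.2, 8.29 and 8.16 CPM in WT and 13.8, 10.9, 18.5 and 18.1 CPM in LKO on chow, and at 6.05, 7.97, 8.47 and 5.56 CPM in WT and 12.6, 11.4, 10.4 and 11.6 CPM in LKO on HFD. The genotypes did not overlap (log2 fold changes 1.08 and 0.71, SE 0.175 and 0.174, adjusted p = 0.000228 and 0.00804). Gstm7 fell from 77.3 ± 6.97 to 61.9 ± 5.64 CPM on chow (-0.32, SE 0.0909, adjusted p = 0.0153) and from 65.3 ± 5.44 to 50.7 ± 2.86 CPM on HFD (-0.36, SE 0.0911, adjusted p = 0.00929). The chow fall of Gstm7 missed the threshold without WT chow library 4 (edgeR adjusted p = 0.0568). It was also lost without LKO chow libraries 1 and 2 (0.0602) and in the fit of only the groups compared (0.0768).

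Gstm4 rose on chow (log2 fold change 0.40, SE 0.126, adjusted p = 0.0262), with overlapping groups (61.7 to 94.3 CPM in WT libraries, 89.4 to 119 CPM in LKO libraries). That call was lost in 6 of 25 alternative fits, among them those without WT chow library 1 (adjusted p = 0.0813) or 2 (0.0662) and without LKO chow library 1 (0.0513) or 3 (0.0823). On HFD Gstm4 was not called by edgeR (0.37, SE 0.126, adjusted p = 0.0505), though the groups did not overlap. DESeq2 (0.0377) and the fit of only the groups compared (0.00887) were among the fits that called it there. Summed over Gstm1 to Gstm7 the class was not called (0.52, SE 0.213, adjusted p = 0.0861 on chow, and 0.35, adjusted p = 0.288 on HFD).

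Gsto2 (chromosome 19, 47865534 to 47886324, plus strand), an omega-class enzyme with dehydroascorbate reductase activity, was the least abundant member to be called. Its counts were 6, 6, 10 and 7 in WT and 42, 33, 47 and 23 in LKO on chow, and 2, 2, 5 and 6 in WT and 45, 39, 24 and 51 in LKO on HFD. Each LKO library thus held more reads than any WT library. On the CPM scale the group means were 0.359 ± 0.125 and 1.62 ± 0.453 on chow, and 0.167 ± 0.0852 and 1.74 ± 0.59 on HFD. The log2 fold changes were 2.18 on chow (SE 0.363) and 3.31 on HFD (SE 0.399), with adjusted p of 0.000307 and 1.57e-05, and with so few WT reads their size is imprecise. The abundant neighbour Gsto1, also on chromosome 19, was not called.

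**Figure D4:**
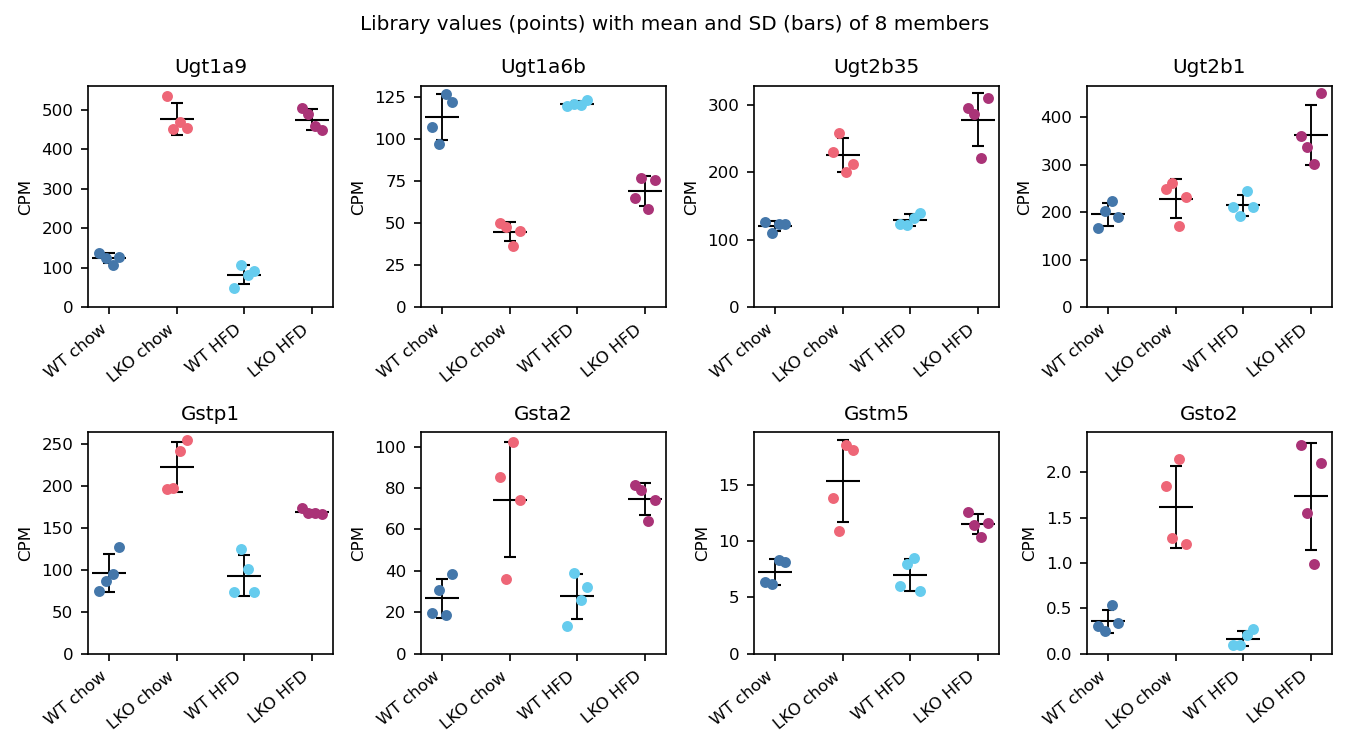
CPM of 8 called members in each library, with points for single libraries, a line for the mean and bars for the SD (n = 4 per group). Ugt1a9, Ugt2b35, Gstp1, Gstm5 and Gsto2 are higher in every LKO library than in any WT library of the same diet, Ugt1a6b is lower, and 1 LKO chow library of Gsta2, at 36.2 CPM, lies among the WT values.

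Libraries of a group differed in how often they ranked highest or lowest for glutathione transferases. LKO chow library 2 was the lowest of its group for 18 of 24 glutathione transferases, and LKO chow library 3 was the highest for 18. In WT on chow, library 4 was the highest for 17 of 24, and in WT on HFD library 2 was the highest for 17. Over all tested genes the same 4 libraries held that rank for 26.5%, 22.1%, 22.6% and 33.0% of genes. Of 18 glucuronosyltransferases, LKO chow library 2 was the lowest for 5, and LKO chow library 3 the highest for 1. These counts describe single libraries, and what they go with was not tested.

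The second question was what the diet did within each genotype. In WT, 0 of 42 members were called by edgeR (2.04% of all genes were), with 14 at an unadjusted p below 0.05, of which 2 were higher and 12 lower on HFD. The lowest adjusted p was that of Ugt1a9, at 0.0692, with a log2 fold change of -0.59. DESeq2 called 2 members lower, Ugt1a9 (-0.60, adjusted p = 0.0134) and Ugt2b5 (-0.33, adjusted p = 0.0396), where it called 4.89% of all genes. In WT, Alb was at 71037 to 93806 CPM on chow and at 46314 to 51380 CPM on HFD, while the other 6 hepatocyte markers summed to 20674 to 26523 and 18432 to 21669 CPM. Their part in the diet values was not tested. In edgeR fits leaving out 1 library, Ugt1a9 was called without WT HFD library 2 (-0.74, adjusted p = 0.024) and Ugt2a2 without WT chow library 1 (2.67, adjusted p = 0.00162).

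In LKO, 2 members rose on HFD (4.76%, against 2.22% of all genes), both glucuronosyltransferases (1.14% of all genes rose). Ugt1a6b rose by 0.62 in log2 (SE 0.113, adjusted p = 0.00767), from 44.9 ± 5.79 to 68.9 ± 8.81 CPM, still below every WT library. Ugt2b1 rose by 0.67 (SE 0.142, adjusted p = 0.0214). Neither group pair overlapped. These diet counts moved with the LKO chow libraries left out: without libraries 1 and 2 of LKO chow 12 members were called (5 higher and 7 lower, while 19.2% of all genes were called), without libraries 3 and 4 there were 0 (1.24% of all genes), and without library 2 alone there were 6 (4.54% of all genes). With LKO chow library 3, LKO HFD library 1 or LKO HFD library 4 left out, 1 was called (0.811%, 0.769% and 0.88% of all genes).

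Whether the genotype difference itself changed with diet was tested as an interaction. It was called for 0 of 42 members by edgeR (0.0208% of all genes) and by DESeq2 (0.346%). At an unadjusted p below 0.05 there were 8 members by edgeR and 9 by DESeq2. The 8 were Gstt3, Ugt1a6b, Ugt1a9, Ugt2b1, Ugt2b34, Ugt2b5, Ugt3a1 and Ugt3a2, and each had a positive estimate, that is, a more positive LKO against WT difference on HFD. The lowest adjusted p was 0.402, for Ugt1a6b (0.52, SE 0.158). Members that edgeR called on 1 diet and not on the other, such as Ugt2b1, Ugt2a3, Ugt3a1 and Gsta1, are not shown by this test to differ between the diets. Without LKO chow libraries 1 and 2 the interaction was called for 6 members, Ugt1a6b, Ugt2b1, Ugt2b34, Ugt3a1 and Ugt3a2 higher and Mgst1 lower, and for 8.76% of all genes.

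Genes around the 2 conjugation pathways were followed from lists of pathway genes, to be read beside all tested genes, of which 12.9% rose and 11.8% fell on chow and 10.3% rose and 7.57% fell on HFD. Among 14 regulators of drug metabolism, 2 rose and 3 fell on chow, and 2 rose and 1 fell on HFD. Nfe2l2, which encodes NRF2, rose from 92.9 ± 6.87 to 142 ± 9.65 CPM on chow (log2 fold change 0.62, adjusted p = 0.000138) and by 0.49 on HFD (adjusted p = 0.00136). Nr1i2, which encodes PXR, fell by 0.66 on chow (adjusted p = 1.49e-05) and by 0.62 on HFD (adjusted p = 3.84e-05). Ahr rose on chow (0.54, adjusted p = 0.00132).

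Of 16 NRF2 targets other than glutathione transferases, 4 rose and 2 fell on chow, and 3 rose and 2 fell on HFD. The median log2 fold changes were -0.03 and -0.01, against 0.02 and -0.01 over all genes. Osgin1, an oxidative stress-induced growth inhibitor, rose by 1.73 on chow (adjusted p = 4.02e-08) and 1.05 on HFD (adjusted p = 1.37e-05). Srxn1, the sulfiredoxin that reactivates peroxiredoxins, rose by 1.06 and 0.79 (adjusted p = 3.12e-06 and 8.13e-05). Ephx1 rose by 0.70 and 0.83 (adjusted p = 0.00118 and 0.000332). The malic enzyme gene Me1 fell by 1.48 and 1.24 (adjusted p = 0.0154 and 0.0458).

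Of 15 targets of CAR, PXR and AhR, 3 rose and 4 fell on chow, and 3 rose and 3 fell on HFD. Cyp2b10, the classical CAR target, rose by 1.37 on chow and 3.47 on HFD (adjusted p = 0.00247 and 2.45e-06). Cyp2b13, a cytochrome known to be female-biased, fell by 1.94 and 2.47 (adjusted p = 1.63e-06 and 1.67e-07). The carboxylesterase gene Ces2a fell by 1.08 and 1.13 (adjusted p = 7.45e-06 and 5.98e-06).

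In glutathione synthesis, recycling and breakdown, 4 of 20 genes rose and 3 fell on chow, and 3 rose and 2 fell on HFD. Nat8, which acetylates cysteine conjugates in the last step of mercapturic acid formation, rose from 0.86 ± 0.265 to 25.8 ± 4.9 CPM on chow and from 0.639 ± 0.348 to 18.4 ± 1.87 CPM on HFD (log2 fold changes 4.89 and 4.80, adjusted p = 1.18e-09 and 2.5e-09). Ggct, a gamma-glutamylcyclotransferase, rose by 1.14 and 0.84 (adjusted p = 0.00154 and 0.0156). Ggt6, of the gamma-glutamyltransferase family, fell by 0.96 and 0.76 (adjusted p = 1.83e-05 and 0.000213).

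In UDP-glucuronate supply and glucuronide cleavage, 1 of 9 genes rose and 3 fell on chow. On HFD 0 of 9 were called by edgeR, with 3 at an unadjusted p below 0.05 and 1 called by DESeq2. Ugdh, which makes UDP-glucuronate, was not called, at 171 ± 40.9 and 203 ± 20.2 CPM on chow. Of 13 conjugate transporters, 2 rose and 5 fell on chow, and 3 rose and 2 fell on HFD. Slco1a1, an uptake carrier for organic anions known to be male-biased in mouse liver, rose by 2.65 and 2.13 (adjusted p = 8.86e-07 and 1.3e-05). The exporter gene Abcg2 rose by 0.73 and 1.02 (adjusted p = 1.05e-05 and 2.94e-07), and the exporter gene Abcc4 fell by 1.29 and 1.09 (adjusted p = 0.00719 and 0.0217). Slco1a4 fell by 0.49 and 0.92 (adjusted p = 0.0151 and 0.00018). Of 12 other genes with the glutathione transferase fold or of the membrane-bound family, 1 rose on each diet, the prostaglandin E synthase gene Ptges (1.25 and 1.34, adjusted p = 0.00937 and 0.00541).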

How the data were processed

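The authors deposited estimated (expected) counts per gene symbol, not normalised. The build (mm10), Bowtie2 and DESeq2 appear in the submitters' processing notes with no version or role. The counting tool is not given in the sources used here. Per the labels, poly(A) libraries were read as paired 150-base reads. Counts were rounded to whole numbers and fitted over all 16 libraries with edgeR 4.0.16 (R 4.3.3): TMM scaling, filterByExpr, robust quasi-likelihood, 1 mean per group, 2-sided, Benjamini-Hochberg over 14434 genes, called below 0.05. CPM are TMM-scaled.

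Members, lists and the rule for named genes were chosen with earlier results of these data known. Called members with a log2 fold change of at least 1 and a group mean of at least 1 CPM are given by library. Up to 4 genes per list are named, not always those with the lowest p. Copies of a family were also summed before fitting. Positions are from GENCODE M21, using the longest coding transcript starting within 500 bases of the gene's start. A window counted as shared if its 150 bases occurred in a transcript of another gene. Deviations from group means were correlated between libraries of the same replicate number (-0.28 to 0.32, median -0.018, 5 of 24 above 0.1). These correlations cannot exclude a pairing of some libraries, and the main fit had none. Alternatives were DESeq2 1.42.0, other scalings and filters, fits of the compared groups, a replicate block and leaving out libraries. The fit was tested on simulated data.

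A second deposited table of 35712 genes also holds estimated counts. Its 8 chow columns stood 1 row below their genes and were moved up. It was used for family symbols outside the main table.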

Additional observations from a re-analysis of the deposited data

Results flagged for a closer look

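Gstm4 in WT HFD library 2 stood at 93.3 CPM, while the other 3 libraries of that group lay between 71.2 and 74.7 CPM. The gap, 0.84 of the group's range, exceeded Dixon's 95% limit for 4 values. Such a limit flags about 1 group in 20 by chance, and 64 groups were examined. That library also had the highest level of 17 of 24 glutathione transferases in its group.

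Ugt2b38 is outside the main counts table and was read from the second deposited table. Its highest estimated count was 12.3 in an LKO library (LKO HFD library 4) and 3.38 in a WT library. Of the transcript of Ugt2b5, 19.5% of the windows also occur in Ugt2b38, and Ugt2b5 is far more abundant.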

How the results depend on the processing

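Of 27 member calls in the comparisons of 2 groups, 20 were kept in every alternative in which the member was tested and 7 were lost in at least 1: Gsta1, Gsta2, Gstm4 and Gstm7 on chow, Ugt1a10 on HFD, and Ugt1a6b and Ugt2b1 for the diet in LKO. No fitted direction of these 27 calls reversed. Gstt2, which the main fit did not call on chow, was called in opposite directions between genotypes there. It was higher in LKO without LKO chow libraries 1 and 2 (0.50, edgeR adjusted p = 0.00948) and lower without 3 and 4 (-0.48, 0.0301). Leaving out 1 library gave 12 to 18 called members for LKO against WT on chow, 10 to 14 on HFD, 0 to 1 for the diet in WT, 1 to 6 for the diet in LKO and 0 to 0 for the interaction. In that order, those fits called 18.7% to 27.2%, 13.7% to 19.6%, 1.07% to 2.49%, 0.769% to 4.54% and 0% to 0.0624% of all genes. For the diet in WT, DESeq2 called 2 members (4.89% of all genes). There, 1 was called without LKO chow libraries 1 and 2 (4.28%) or without 3 and 4 (3.48%). For the diet in LKO, DESeq2 called 4 (5.45% of all genes) and a fit of only the groups compared 1 (1.3%). The fit without LKO chow libraries 1 and 2 called 12 there (19.2%), and that without 3 and 4 called 0 (1.24%). The interaction gave 6 without LKO chow libraries 1 and 2 (8.76%). Why these libraries matter was not tested. With copies summed, 6 combinations of a copy group and a comparison were called, against 13 with at least 1 single copy called. The libraries share only replicate numbers, and the fit with a replicate block called 14, 11, 0, 2 and 0 members, the counts without it. That fit called 22.6%, 16.1%, 1.54%, 1.6% and 0% of all genes. Depth limits the low members: Gsto2 had 2 to 10 counts in WT libraries, and a filter on a mean count of 50 left it out.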

Other observations

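The second deposited table lists 5 further family symbols: Gsta5, Gstm2-ps1, Gstt4, Ugt1a8 and Ugt2b38. Gsta5 reached at most 3.33 estimated counts in a library, Ugt1a8 at most 5.58, Gstt4 at most 2 and Gstm2-ps1 at most 2.01. These levels are too low to compare groups.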
